A study of Mus musculus with 192 samples.

Results

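The genes described here encode the relay between cell-surface receptors and cyclic AMP: G protein alpha, beta and gamma subunits, RGS proteins, adenylyl cyclases, phosphodiesterases, protein kinase A subunits and A-kinase anchoring proteins. They were chosen by symbol alone, as the rows of the value table with a single annotated symbol beginning with Gna, Gnb, Gng, Rgs, Adcy, Pde, Prkar, Prkac or Akap, the family letters being followed by a number where the family is numbered. This gave 51 genes from 77 rows, of which 73 rows had values on 80% or more of each dataset's arrays, and all 51 genes kept at least 1 row. They stand among 15610 features in all, a feature being a gene symbol or a row without one. Rows of one symbol were averaged, which applied to 15 of the 51 genes, and 2 rows that share the symbol Gnas with others were left out.

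RNA came from small cubes of brain, called voxels, of male C57BL/6 mice of postnatal day 56. Every array set 1 voxel against RNA of whole brain from the same strain, sex and age, and the labels name no mutation. The labelling protocol mentions LiCl-treated samples, which does not match this design, and that mention was not used. The arrays fall into 3 independently harvested datasets of 59, 68 and 65 arrays, which are the replicates. A position is a letter (A to G, the grid row) with a number (1 to 11, the grid column), and the labels give no anatomical directions. Of 68 positions, 56 were present in all 3 datasets and 12 in only 2 of them. The labels describe the voxel RNA as pooled and do not say from how many brains. Voxel RNA carried Cy3 in datasets 1 and 3 and Cy5 in dataset 2, so dye and dataset cannot be told apart.

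All values are log2 ratios of the voxel and whole-brain channels. The authors' rows are centred on their own median, so a value compares positions of one gene and says nothing of how abundant that gene is. Values below are further given relative to the gene's mean in the same dataset over the 56 shared positions, and means ± SD are over datasets. A higher value likely means more RNA in the voxel, but the labels do not state which channel is the numerator. In tissue cubes, fewer cells of a type and less RNA per cell cannot be told apart. Of pairs of arrays in one dataset 0.676% correlated below -0.3, with a lowest value of -0.573. The direction was kept for them, since the dyes are stated and different brain regions can oppose each other. In dataset 2 the arrays labelled D1 to D7 followed the other datasets with a mean correlation of -0.188 as labelled and 0.707 with the columns in reverse order, over 300 features. They were used as labelled, and calls below that changed without the 6 arrays D1 to D3 and D5 to D7 are named. On 3 arrays of dataset 3, at G3, G6 and G8, over 15% of values were not measured. Genes of the marker lists for brain cell types and regions passed the position test in every list, among them 6 of 8 for cerebral cortex, 6 of 9 for striatum and 1 of 7 for vessels and meninges.

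Receptors coupled to G proteins exchange the nucleotide on the alpha subunit, which then parts from the beta and gamma subunits. RGS proteins speed the return of the alpha subunit to its resting state. Stimulatory and inhibitory alpha subunits raise or lower the activity of adenylyl cyclases, which make cyclic AMP, and phosphodiesterases break cyclic AMP and cyclic GMP down. Cyclic AMP releases the catalytic subunits of protein kinase A from its regulatory subunits, and A-kinase anchoring proteins hold the enzyme at particular places in the cell. In the striatum this chain carries dopamine signals, and in cortex and hippocampus it takes part in synaptic plasticity.

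Start-site windows of 6 of the genes whose RNA differed among positions are printed, because the results group them by map. Pde1a, Gng3 and Prkar1b were lower in columns 3-4 and 8-9 of rows C-E than in rows F-G. Rgs10 and Rgs17 had high means over datasets in rows A and B, although row B of Rgs17 held -0.28 in dataset 1. Adcy9 was high in row F. RefSeq windows on GRCm38.p6, 250 bases before to 50 after a start, were matched by symbol for 44 of the 51 genes. Where a gene has several windows the one farthest upstream is shown. Capitals mark a GC box (GGGCGG or its complement CCGCCC) or the first bases of a cAMP response element (TGACG or its complement CGTCA); the full element TGACGTCA holds both of the latter. All 6 genes lie on the minus strand, and sequences run 5′ to 3′ along the gene.
Pde1a, chr2:80129363-80129662: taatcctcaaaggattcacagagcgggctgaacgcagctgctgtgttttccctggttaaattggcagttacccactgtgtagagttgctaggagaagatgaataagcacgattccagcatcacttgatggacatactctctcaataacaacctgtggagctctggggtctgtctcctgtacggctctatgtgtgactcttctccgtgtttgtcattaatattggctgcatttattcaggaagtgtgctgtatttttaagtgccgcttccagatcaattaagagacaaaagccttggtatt
Gng3, chr19:8839197-8839496: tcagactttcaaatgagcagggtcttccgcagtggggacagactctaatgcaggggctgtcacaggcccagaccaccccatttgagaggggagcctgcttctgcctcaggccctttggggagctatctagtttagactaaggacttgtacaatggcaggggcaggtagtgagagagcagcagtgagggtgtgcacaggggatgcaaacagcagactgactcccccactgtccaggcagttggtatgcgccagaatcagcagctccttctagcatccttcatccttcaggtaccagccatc
Prkar1b, chr5:139150654-139150953: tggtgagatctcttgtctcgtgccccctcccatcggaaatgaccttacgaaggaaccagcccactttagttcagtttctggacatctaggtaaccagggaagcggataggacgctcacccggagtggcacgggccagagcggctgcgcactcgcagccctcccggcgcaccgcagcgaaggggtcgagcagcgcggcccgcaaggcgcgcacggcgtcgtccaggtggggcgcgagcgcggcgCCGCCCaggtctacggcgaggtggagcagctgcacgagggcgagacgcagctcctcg
Rgs10, chr7:128418123-128418422: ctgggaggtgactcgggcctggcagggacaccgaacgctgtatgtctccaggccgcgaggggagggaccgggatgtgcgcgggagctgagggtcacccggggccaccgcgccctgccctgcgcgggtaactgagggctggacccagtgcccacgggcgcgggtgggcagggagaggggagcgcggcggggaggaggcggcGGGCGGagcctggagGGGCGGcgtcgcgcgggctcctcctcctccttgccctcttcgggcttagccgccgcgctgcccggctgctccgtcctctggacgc
Rgs17, chr10:5922351-5922650: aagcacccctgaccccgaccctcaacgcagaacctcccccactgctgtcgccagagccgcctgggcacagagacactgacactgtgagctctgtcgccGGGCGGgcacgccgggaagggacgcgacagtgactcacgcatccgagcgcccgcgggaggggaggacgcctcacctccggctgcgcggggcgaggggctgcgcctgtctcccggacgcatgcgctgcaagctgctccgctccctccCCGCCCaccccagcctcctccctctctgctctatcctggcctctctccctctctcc
Adcy9, chr16:4420449-4420748: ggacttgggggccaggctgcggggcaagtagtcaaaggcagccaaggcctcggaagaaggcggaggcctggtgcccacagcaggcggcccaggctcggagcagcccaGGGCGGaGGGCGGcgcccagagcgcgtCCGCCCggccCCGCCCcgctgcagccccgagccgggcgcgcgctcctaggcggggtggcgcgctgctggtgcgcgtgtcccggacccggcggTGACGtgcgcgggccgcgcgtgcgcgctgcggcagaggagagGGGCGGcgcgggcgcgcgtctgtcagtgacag
Neither of these motifs stood in the windows of Pde1a and Gng3 shown. In the windows shown, Rgs10 and Rgs17 each held 2 GC boxes, Prkar1b held 1, and Adcy9 held 5 together with 1 TGACG. Among windows not shown, 1 of Prkar1b held 4 GC boxes, another held 2 with 1 TGACG, and 1 of Pde1a held 1 CGTCA. Over all 83 windows of the 44 genes, 56.6% held a GC box against 35.7% of the 32851 windows in the table, and 24.1% held TGACG or CGTCA against 20.8%. The full element stood in 2 of the 83 windows (2.41%) against 1.79% of all windows. Of the 9 genes past the position test 7 had windows, 18 in all, of which 38.9% held a GC box, 22.2% held TGACG or CGTCA and 0 held the full element. The median share of G and C was 61.3% in the 83 windows, 56.8% in the 18 windows of genes past the test and 52.7% in all windows. A match is a run of letters and not a measured binding site.

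The first comparison asked which genes differed in RNA among the voxel positions. The genes that did were Pde1a and Pde2a among the phosphodiesterases, Gng3 and Gng11 among the gamma subunits, Prkar1b of protein kinase A, Rgs10 and Rgs17, the alpha subunit Gnai2, and the cyclase Adcy9. By limma's moderated F test over positions with dataset as a block, these 9 of 51 genes (17.6%) had a Benjamini-Hochberg adjusted p under 0.05, against 765 of 15501 features tested (4.94%). At an unadjusted p under 0.05 the counts were 22 of 51 (43.1%) and 13.5% of all features. The median F was 1.27 for the 51 genes and 1.03 for all features. No A-kinase anchoring protein (0 of 9) and no beta subunit (0 of 2) was among the 9, although 3 and 1 of them had an unadjusted limma p under 0.05. Leaving out dataset 1, 2 or 3 left 5 of 51, 1 of 49 and 4 of 45 genes tested past the threshold. Only Pde1a was among them each time. Of all features tested, 360 of 14824, 206 of 14481 and 543 of 13668 passed in these runs. Without the dataset block 6 of the 51 genes passed, against 365 of 15501 features. Without the 6 arrays of row D of dataset 2 the count was 11 of 51, the same 9 with Pde8b and Prkaca, against 757 of 15495 features. High and low positions and rows of single genes, named below, were picked from these same values. Their separation over datasets is a description and no test.

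**Figure D1:**
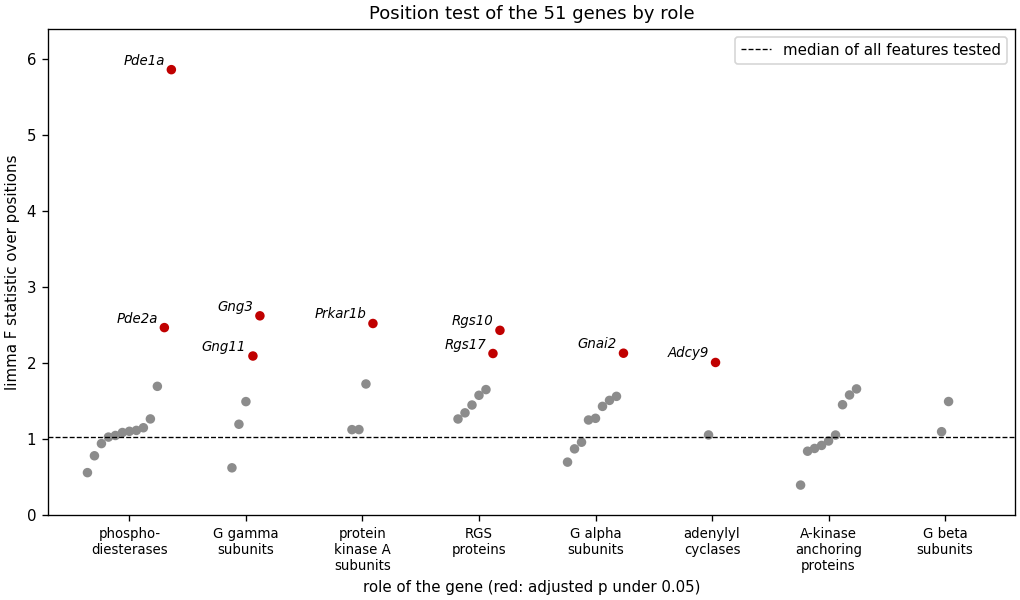
F statistic of limma's position test (vertical axis) for each of the 51 genes, 1 point a gene, grouped by role (horizontal axis), with the 9 genes at an adjusted p under 0.05 in red and the median of all features, 1.03, as a dashed line. Pde1a, at 5.87, stands above the other 8 genes, which lie between 2.01 and 2.63.

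Pde1a encodes a phosphodiesterase switched on by calcium and calmodulin that acts on cyclic AMP and cyclic GMP. Its F was 5.87, rank 30 of the features tested, with an adjusted limma p of 5.05e-15. At D4 its log2 ratio was -1.26, -1.26 and -0.92 in datasets 1 to 3, and at D8 it was -1.22, -1.11 and -1.05. At G4, the highest position, it was 0.99, 1.04 and 2.01. Datasets did not overlap between these low and high positions, picked from the same values. Row means in datasets 1 to 3 were -0.42, -0.65 and -0.52 in row D, 0.37, 0.78 and 0.88 in row F, and 0.77, 0.63 and 0.54 in row G. Columns 10 and 11 were also high in rows B and C, with 0.97 ± 0.40 at C11. The dataset maps correlated at between 0.55 and 0.72, and the left and right sides of the mean map at 0.84 over 29 mirror pairs.

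Pde2a encodes a phosphodiesterase that cyclic GMP stimulates to break down cyclic AMP. It was highest at D10 (0.81, 1.23 and 0.77 in datasets 1 to 3) and D9 (1.16, 0.65 and 1.00). It was lowest at A7 (-1.44, -1.14 and -0.98) and B6 (-0.42, -1.45 and -1.46). Every dataset was thus above its mean at the first pair of positions and below it at the second, both picked from these values. Column means lay between -0.61 and -0.21 in columns 5 to 7 in all 3 datasets and between 0.27 and 0.49 in column 9. Pde2a had an F of 2.47 and an adjusted limma p of 0.000393, which became 0.0594 without dataset 2 and 0.118 without dataset 3.

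The other 11 genes whose symbols begin with Pde did not pass. Pde8b, a phosphodiesterase with high affinity for cyclic AMP, came closest with an F of 1.70 and an adjusted limma p of 0.0926. It was lowest at C5, with -0.54, -0.55 and -1.69. The remaining 10 had F values from 0.56 for Pde4dip to 1.27 for Pde8a. Pde4dip is no enzyme but a scaffold protein named for its binding to a phosphodiesterase, and Pde6d carries lipid-modified proteins.

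Gng3 encodes a gamma subunit found mainly in neurons. It was lowest at C3 (-0.86, -0.65 and -1.31 in datasets 1 to 3) and at C9, the mirror position of C3 (-0.73, -0.76 and -0.85). It was highest at F3 (0.46, 0.91 and 0.75), and B7 held 0.49, 0.60 and 0.51. The low and high positions, picked from the same values, did not overlap in any dataset. Its F was 2.63 with an adjusted limma p of 0.000109, and the 2 sides of its map correlated at 0.81. Without dataset 2 the adjusted limma p was 0.3.

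Gng11 encodes a gamma subunit found widely outside neurons as well. Its values were high in columns 4 and 8: D8 held 1.49, 0.52 and 0.86, and E4 held 0.62, 0.80 and 1.29. Low values stood at G9 (-0.78, -0.84 and -1.02) and at A10, where datasets 2 and 3 gave -1.17 and -1.59. Its highest mean, at C5, rests on 1 array of dataset 3 with 4.05, while datasets 1 and 2 gave 0.10 and 0.04. The adjusted limma p was 0.00673, and 0.00118 with values limited to within 3 of 0. It was 0.0644, 0.779 and 0.173 without dataset 1, 2 or 3. The other gamma subunits, Gng5, Gng13 and Gng12, had F values of 1.50, 1.20 and 0.62.

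Prkar1b encodes a regulatory subunit of protein kinase A that is found mainly in the nervous system. It was lowest at E5 (-0.68, -0.90 and -1.10) and E4 (-1.05, -0.71 and -0.90). Its highest mean, at G9, was uneven over datasets (0.07, 0.97 and 1.79). High values also stood at G5, where datasets 1 and 2 gave 0.80 and 0.93, and at E11 (0.72, 0.99 and 0.59). Its row means in row F were 0.36, 0.62 and 0.36, against -0.33, -0.69 and -0.16 in row D. The adjusted limma p was 0.00026, but 0.174 with floor values kept as measurements. It was 0.0961 without the dataset block, 0.143 without dataset 1 and 0.0911 without dataset 2. Prkaca, the alpha catalytic subunit, had an F of 1.73 and an adjusted limma p of 0.0758. It was highest at B5 (0.76 and 0.95 in datasets 2 and 3) and passed the threshold under 5 of 14 other settings. Prkar1a and Prkar2b, the other regulatory subunits measured, both had an F of 1.13.

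Rgs10 encodes a small RGS protein known from microglia and neurons. It was highest in row B: B8 held 0.45, 0.99 and 0.76, and B5 held 1.04 and 0.74 in datasets 2 and 3. Row means in row A were 0.32, 0.35 and 0.32, and in row G -0.37, -0.21 and -0.60. These rows, also picked from the values, did not overlap. At G8 the value of dataset 3 was -1.73 on an array with over 15% of values not measured, while datasets 1 and 2 gave -0.44 and 0.10. Its adjusted limma p was 0.000525, and 0.203 without dataset 3.

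Rgs17 encodes an RGS protein that acts on inhibitory alpha subunits. B7 held 1.14, 0.97 and 1.38, and B8 held 0.71, 0.77 and 1.69. It was lowest at E6, with -1.01, -0.65 and -0.91. In every dataset B7 and B8 lay above the gene's mean and E6 below it, all picked from the same values. Row B itself was uneven, with means of -0.28, 0.41 and 0.53, but dataset 1 held fewer positions of that row. The adjusted limma p was 0.00479, and 0.056, 0.595 and 0.259 without dataset 1, 2 or 3. Rgs12, Rgs3, Rgs2, Rgs19 and Rgs11 had F values of 1.65, 1.58, 1.45, 1.35 and 1.27. Rgs3 reached 5.96 at C5 in dataset 3 and 3.77 in dataset 1, against 0.03 in dataset 2. Of the 4 rows of Rgs2, tested one by one, 1 passed with an adjusted limma p of 7.34e-05, and the rows correlated at between -0.09 and 0.33.

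Gnai2 encodes an inhibitory alpha subunit. It was highest at B5, with 0.85 and 0.78 in datasets 2 and 3, followed by B8 with 0.27, 0.85 and 0.39. Row B means were 0.15, 0.31 and 0.15, and row G means were -0.07, -0.29 and -0.11. Dataset 1 held fewer positions of row B than the others. The rows, picked from the same values, did not overlap, but the differences were small. The adjusted limma p was 0.00462, and 0.708 without the dataset block. It was 0.936 without dataset 2 and 0.18 without dataset 3. Its 3 rows correlated at between 0.07 and 0.41, and 1 of them passed alone. The maps of datasets 1 and 3 correlated at only 0.04. The other 8 alpha subunits had F values from 0.70 for Gnai3 to 1.57 for Gna13, the latter lowest at A9 (-0.76, -0.44 and -0.84). Gnao1, the abundant alpha subunit of neurons, had an F of 1.51 and an adjusted limma p of 0.242. Of the 2 rows of Gna14, 1 passed alone with an adjusted limma p of 0.00409, and they correlated at -0.01.

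Adcy9 encodes an adenylyl cyclase that is insensitive to the activator forskolin compared with its relatives. Its row means were low in row A and high in row F: row A held -0.80, -0.30 and -0.72, and row F held 0.73, 0.28 and 0.48. F3 held 1.10, 0.52 and 0.72, and A7 held -0.96, -0.32 and -1.35. Its highest mean, at G6, rests on 4.11 in dataset 1, where datasets 2 and 3 gave 0.42 and 0.03. The adjusted limma p was 0.0114, 0.00357 with values limited to within 3 of 0, and 0.615, 0.461 and 0.167 without dataset 1, 2 or 3. Adcy7, the other cyclase measured, had an F of 1.06, and its highest value, 4.59 at G8, came from the same array of dataset 3 as the low value of Rgs10.

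Among the anchoring proteins Akap10 and Akap9 had the largest F, 1.66 and 1.58, with adjusted limma p of 0.12 and 0.169. Akap9, a large scaffold of the Golgi and centrosome, was highest at D9 (0.85, 1.27 and 0.86), and 1 of its 2 rows passed alone with 0.00111. Akap10 was highest at E1 (1.60, 0.73 and 4.35) and lowest at E4 (-1.47, -1.11 and -1.02). Gnb1 and Gnb2, the beta subunits, had F values of 1.50 and 1.10. Position means of Gnb1 spanned only 0.76 from lowest to highest, against 2.50 for Pde1a. At the highest position of 18 of the 51 genes, 1 dataset exceeded the next by more than 2 on the log2 scale, and Gng11 and Adcy9 were the only genes of the 9 among them.

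**Figure D2:**
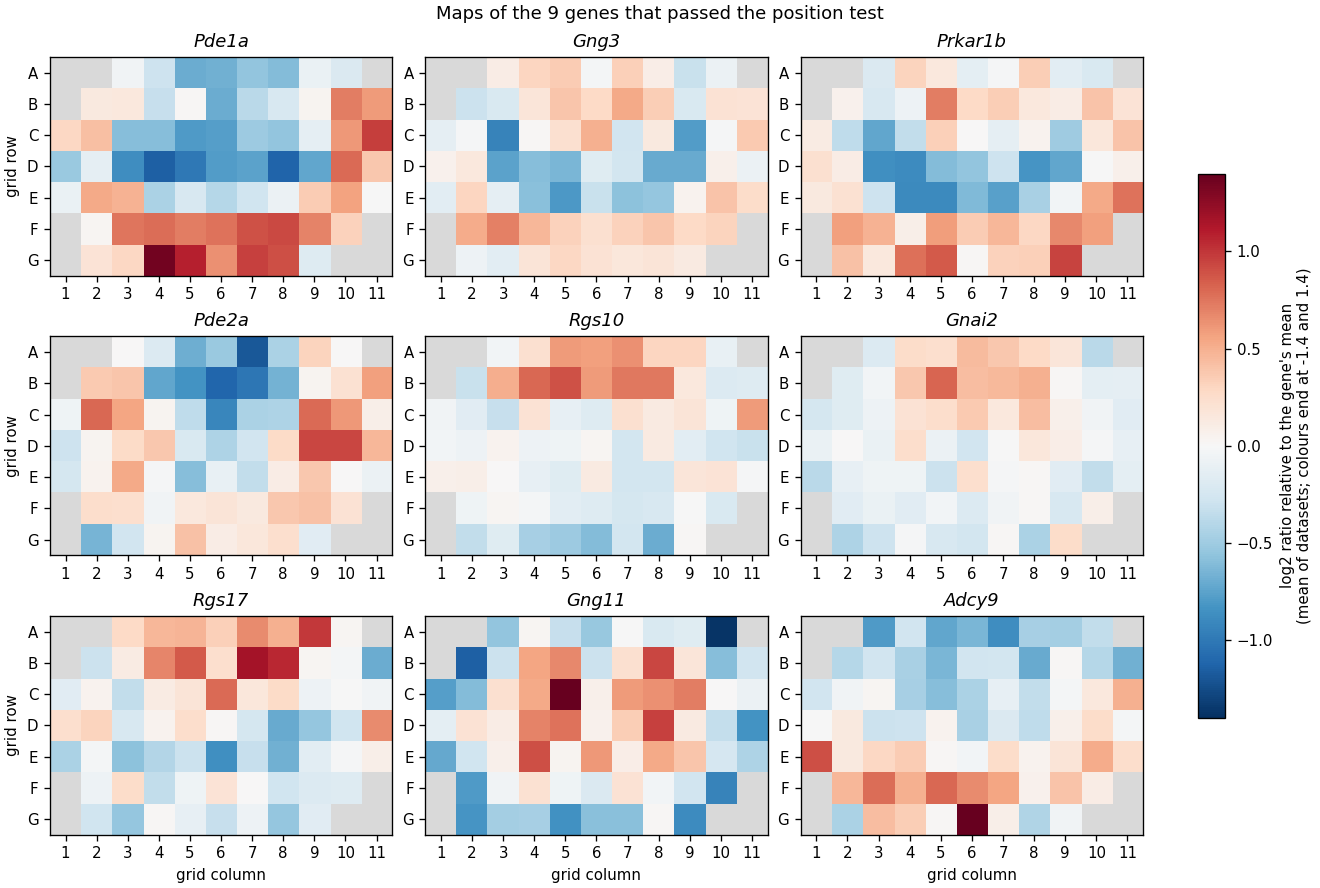
Mean log2 ratio over datasets, relative to the gene's mean, at each grid row (vertical) and grid column (horizontal) for the 9 genes past the position test; grey squares were not sampled and colours end at -1.4 and 1.4. Pde1a is low in the middle of row D and high in rows F and G, Pde2a is low in columns 5 to 7 of rows A to C, and Rgs10, Gnai2 and Rgs17 are high in rows A and B; the darkest squares of Gng11 (C5) and Adcy9 (G6) rest on 1 array each.

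**Figure D3:**
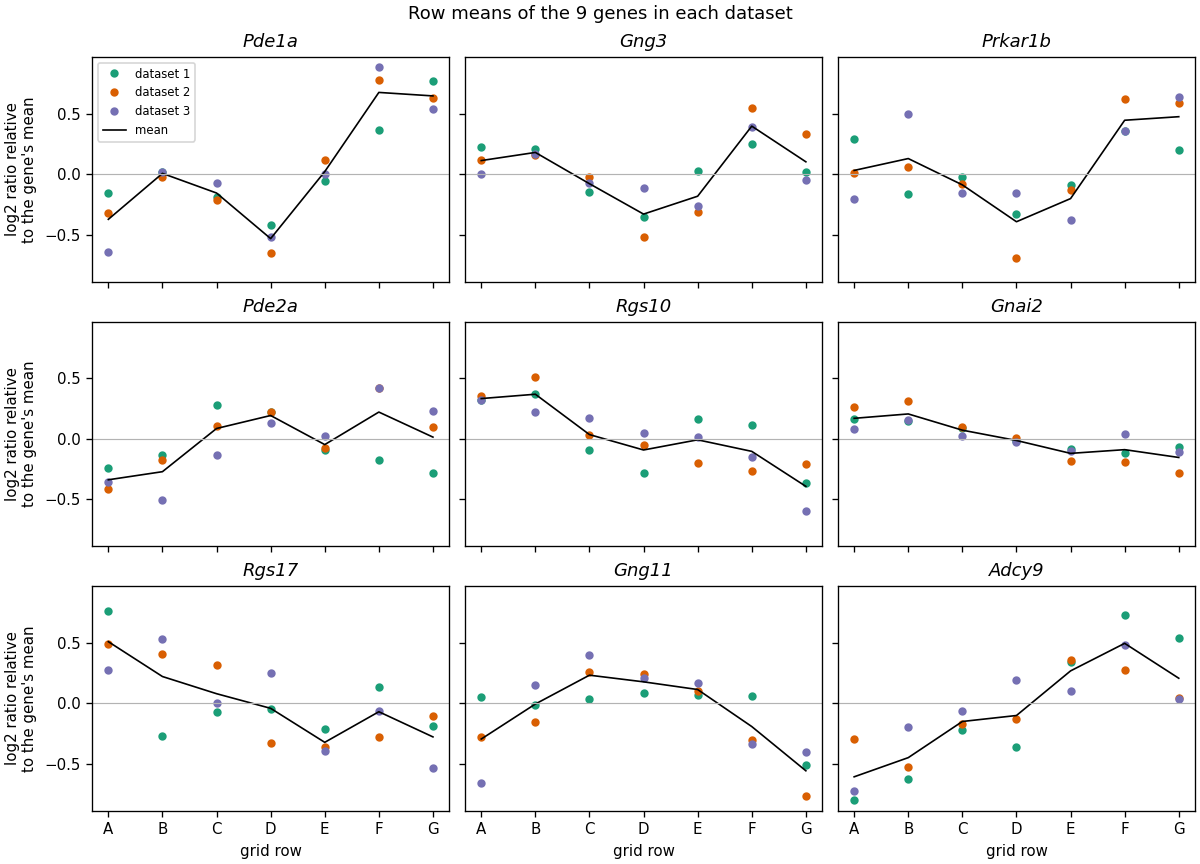
Row means of the 9 genes (log2 ratio relative to the gene's mean, vertical axis) by grid row (horizontal axis); each point is 1 dataset and the line joins their means. Pde1a lies below 0 in row D and above it in rows F and G in all 3 datasets, while Rgs10 lies above 0 in rows A and B and below it in row G.

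The maps of Gng3 and Prkar1b were the most alike of the 9 genes, with Pearson's r of 0.82 over 68 positions, which share arrays and dataset means. Rgs10, Gnai2 and Rgs17 correlated with each other at 0.66, 0.59 and 0.57. Pde1a and Adcy9, both high toward row F, correlated at 0.50. Pde2a ran against Rgs10 at -0.51 and against Rgs17 at -0.50. These are descriptions of mean maps and carry no test.

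Against the mean maps of marker lists, Pde1a was most like the cerebral cortex list (r = 0.82) and least like the thalamus list (-0.64). Adcy9 also followed the cortex list, at 0.69. Gng11 followed the list for myelin and oligodendrocytes at 0.75, that for microglia and blood at 0.62 and that for thalamus at 0.55. Of the 5 genes measured from the microglia and blood list, only Hbb-b1 passed the position test. Pde2a followed the striatum list at 0.61 and the cortex list at 0.53. Rgs10, Gnai2 and Rgs17 followed the list for hypothalamus, septum and ventral forebrain, with 4 genes measured, at 0.68, 0.68 and 0.625. Gng3 and Prkar1b ran against the striatum list at -0.61 and -0.55. The part of cell type composition in any of these maps was not tested.

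**Figure D4:**
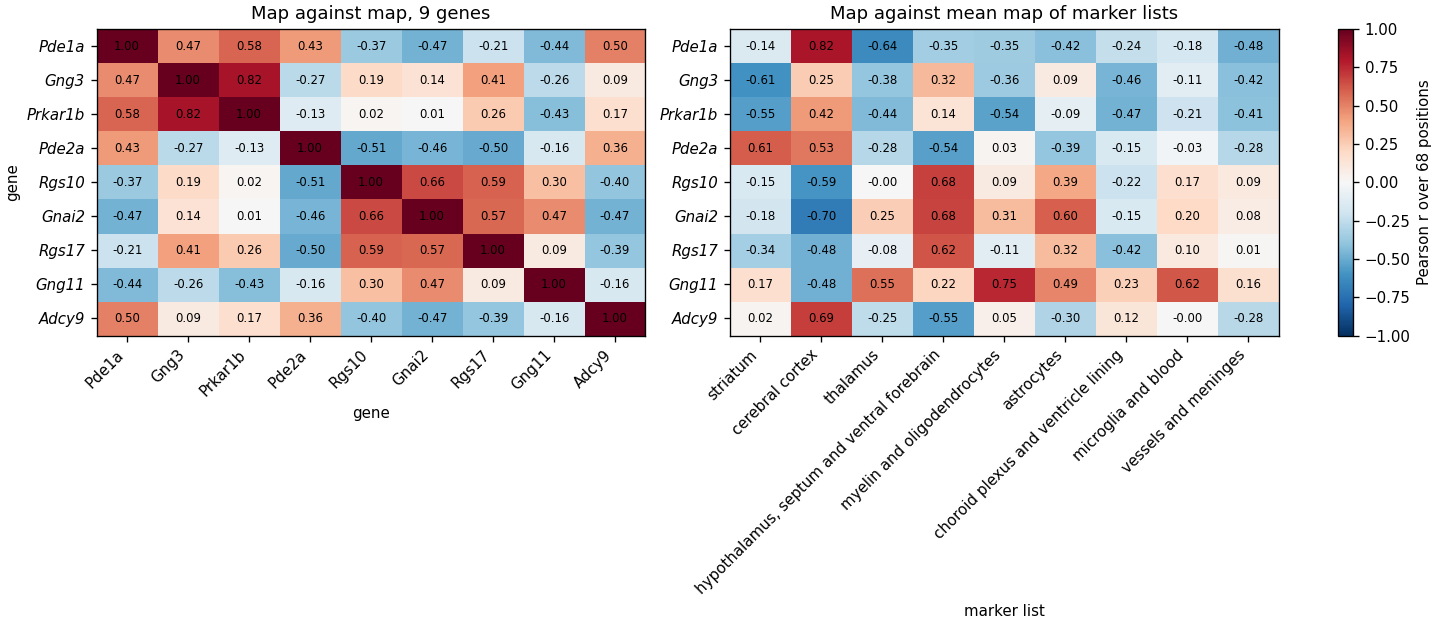
Pearson's r over 68 positions between the mean maps of the 9 genes (left) and between each gene and the mean map of each marker list (right), from -1 in blue to 1 in red. The block of Rgs10, Gnai2 and Rgs17 (0.57 to 0.66), the pair Gng3 and Prkar1b (0.82) and the pair of Pde1a with the cortex list (0.82) stand out.

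Outside these families the symbols with maps nearest to Pde1a were Vxn (r = 0.83), Dkk3 (0.77), Prrt2 (0.76), Kcnh1 (0.76) and B230343A10Rik (0.75), of which Vxn and Dkk3 belong to the cortex list. Nearest to Gng3 were Basp1 (0.81), Stmn3 (0.76), Rtn3 (0.73), Ywhab (0.73) and Stmn1 (0.72). Basp1 (0.76) and Stmn3 (0.66) were also among the nearest to Prkar1b, after or beside Camk2g (0.77), Ywhag (0.72) and Syn1 (0.65). Pde2a lay nearest to Tiam2 (0.82), Tyro3 (0.82), Baiap2 (0.78), Ppp3ca (0.77) and Arpp19 (0.77). Rgs10 lay nearest to Ap1s2 (0.79), Rpl36 (0.77), Pcsk1n (0.74), Tbca (0.73) and Gaa (0.73).

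The next comparisons set zones of the grid against each other, with 1 difference per dataset and limma testing the 3 differences against 0. Columns 3-4 and 8-9 of rows C-E, where the striatal and myelin lists were high, were set against rows F-G, where the cortex list was high. The block was chosen with the map of the striatal marker Ppp1r1b in these data known. For a gene with a like map the test only sizes the difference. Pde1a, Prkar1b and Gng3 were lower in this block than in rows F-G, and Gng11 was higher. These were 4 of 51 genes (7.84%), against 91 of 15610 features (0.583%). By direction, 3 were lower against 0.237% of all features, and 1 was higher against 0.346%. At an unadjusted limma p under 0.05 there were 12 of the 51 genes and 10.1% of all features. In each dataset the block held 11 or 12 positions and rows F-G held 14 to 17. The median difference was -0.01 over the 51 genes and -0.02 over all features. Zone means of the 3 datasets did not overlap for 18 of the 51 genes and for 22.7% of all features.

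Pde1a averaged -0.61, -0.43 and -0.42 in the block and 0.55, 0.71 and 0.74 in rows F-G in datasets 1 to 3. The difference was -1.15 ± 0.02 (SD, n = 3), 2.22-fold lower in the block, with an adjusted limma p of 0.0125. Prkar1b averaged -0.55, -0.50 and -0.59 against 0.28, 0.60 and 0.48. Its difference was -1.002 ± 0.149, with an adjusted limma p of 0.0155. Both genes thus differed between the zones by more than the spread over datasets, and their zones did not overlap. Gng3 averaged -0.51, -0.38 and -0.53 against 0.14, 0.45 and 0.20, a difference of -0.73 ± 0.09 with an adjusted limma p of 0.0343. Gng11 averaged 0.51, 0.35 and 0.65 in the block and -0.21, -0.52 and -0.36 in rows F-G. It was 1.82-fold higher in the block, by 0.87 ± 0.14, with an adjusted limma p of 0.0223. Akap9 was 0.71 ± 0.18 higher in the block without passing, at an adjusted limma p of 0.0574.

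Leaving out dataset 3 kept the same 4 genes past the threshold, with 125 of all features against 91. Without dataset 1 the count was 2 of 51, Pde1a and Prkar1b, with 30 of all features, and without dataset 2 it was 0, when 0 of all features and 9 of the 51 genes at an unadjusted limma p under 0.05 were counted. Keeping floor values as measurements also left 0 of the 51 genes. The 4 differences kept their sign in every alternative run. In the same zones the cortex list averaged -0.21 (-0.26 to -0.17 over datasets) in the block and 0.51 (0.48 to 0.55) in rows F-G, and 4 of its 8 genes were lower and past the threshold. The myelin list averaged 0.63 (0.56 to 0.67) against -0.18 (-0.23 to -0.11), with 4 of 5 genes higher. The striatum list averaged 0.70 (0.59 to 0.91) against -0.34 (-0.36 to -0.30), with 4 of 9 genes higher, Ppp1r1b among them. Their part in the 4 differences was not tested.

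**Figure D5:**
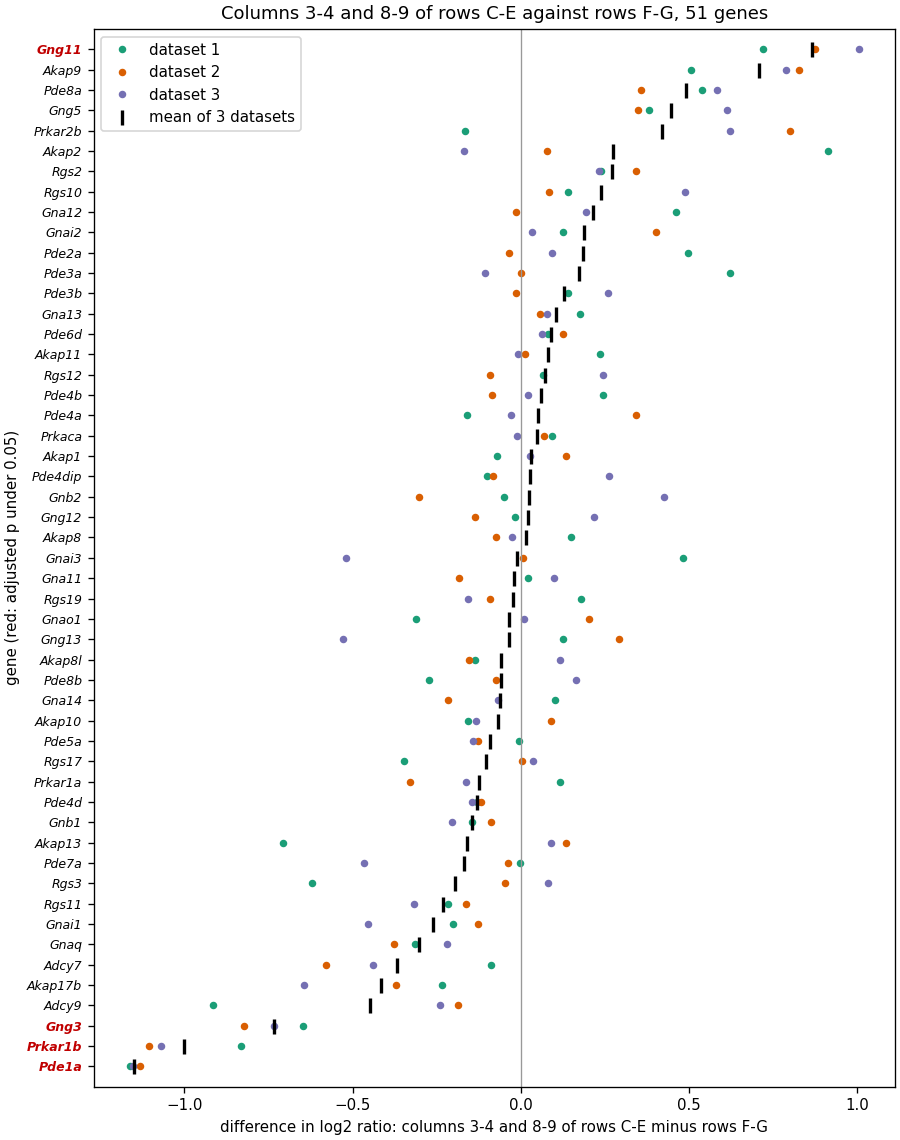
Difference in log2 ratio between columns 3-4 and 8-9 of rows C-E and rows F-G (horizontal axis) for each of the 51 genes (vertical axis); points are the 3 datasets, ticks their mean, and red names passed the test. Pde1a, Prkar1b and Gng3 lie at -1.15, -1.002 and -0.73 and Gng11 at 0.87, with all 3 datasets of each on one side of 0.

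Rows A-B were set against rows F-G. Dataset 1 held 11 positions against 17, dataset 2 held 18 against 17 and dataset 3 held 18 against 14. The mean of rows A-B in dataset 1 thus covers fewer positions. None of the 51 genes passed, against 17 of 15610 features (0.109%) in limma's test, and 8 of the 51 had an unadjusted p under 0.05 against 9.03% of all features. The 3 genes of smallest p with a mean below 0 in rows A-B minus rows F-G were Pde1a, Adcy9 and Rgs11, and the 3 above 0 were Rgs10, Rgs17 and Prkaca. Pde1a averaged -0.07, -0.16 and -0.28 in rows A-B, against the means in rows F-G given above, a difference of -0.83 ± 0.19 with an adjusted limma p of 0.147. Adcy9 averaged -0.72, -0.43 and -0.43 against 0.64, 0.17 and 0.29, a difference of -0.89 ± 0.41 with an adjusted limma p of 0.239. Rgs10 averaged 0.34, 0.44 and 0.27 against -0.13, -0.24 and -0.35, a difference of 0.59 ± 0.11 with 0.239 likewise. For these 3 genes the zones did not overlap. The differences were 0.54 ± 0.20 for Rgs17, -0.57 ± 0.33 for Rgs11 and 0.37 ± 0.04 for Prkaca.

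Zone means did not overlap for 15 of the 51 genes in this comparison, against 21.8% of all features. A fit of all arrays, in which arrays and not datasets carry the error, called 13 of the 51 genes here and 1966 of 15501 features. Rows A-B had 2.06% ± 0.50 of values not measured and rows F-G 1.14% ± 0.14. The list for hypothalamus, septum and ventral forebrain averaged 0.42 (0.34 to 0.46) in rows A-B and -0.17 (-0.23 to -0.13) in rows F-G, and the cortex list -0.45 (-0.62 to -0.36) and 0.51 (0.48 to 0.55). Their part was not tested.

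Columns 5-7 were set against columns 1-3 and 9-11. No member of the families passed, and neither did any feature (0 of 15610, or 0%) in limma's test. At an unadjusted p under 0.05 there were 12 of the 51 genes and 13.2% of all features. Pde2a came closest: it averaged -0.39, -0.26 and -0.50 in columns 5-7 and 0.31, 0.24 and 0.20 in the outer columns. The difference was -0.63 ± 0.11 with an adjusted limma p of 0.0867, and 0.0279 without the 6 arrays of row D of dataset 2. Prkaca ran the other way with 0.23, 0.08 and 0.28 against -0.19, -0.09 and -0.08, a difference of 0.32 ± 0.13. The differences were -0.29 ± 0.07 for Prkar2b, -0.36 ± 0.25 for Pde1a, 0.38 ± 0.30 for Gng11 and 0.35 ± 0.29 for Rgs3. Zones did not overlap for 28 of the 51 genes and for 31.7% of all features. All 9 striatum genes had differences below 0 here, with a median of -0.61.

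Within rows C-E, columns 3-4 and 8-9 were set against columns 5-7. Again no gene of the 51 and none of 15610 features (0%) passed in limma's test, and 6 of the 51 had an unadjusted p under 0.05, against 7.92%. Pde2a averaged 0.27, 0.23 and 0.43 in the outer block and -0.33, -0.19 and -0.70 in columns 5-7. That difference, 0.72 ± 0.37, had an adjusted limma p of 0.614. In the fit of all arrays, where arrays and not datasets carry the error, the adjusted limma p was 0.000133. That fit called 3 of the 51 genes and 174 of 15501 features. Rgs2, an RGS protein that acts on the Gq class, was higher in the outer block by 0.35 ± 0.15 and Gng13 by 0.37 ± 0.22. Gnaq, the Gq alpha subunit, was lower there by value (-0.22 ± 0.06), as were Gnai1 (-0.22 ± 0.09) and Rgs17 (-0.22 ± 0.13). Zones did not overlap for 10 of the 51 genes and 15.5% of all features.

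Columns 1-5 and columns 7-11, set against each other in mirror pairs, gave no call among the 51 genes or the 15610 features (0%) in limma's test. At an unadjusted p under 0.05 there were 5 of the 51 genes and 3.34% of all features. The genes of smallest p were Akap10 (0.20 ± 0.09), Rgs3 (0.20 ± 0.16) and Akap9 (0.10 ± 0.04) above 0 and Gnai3 (-0.26 ± 0.21), Akap17b (-0.16 ± 0.05) and Pde1a (-0.15 ± 0.08) below it. The median size of a difference was 0.05 both for the 51 genes and for all features. Mirror correlations of the 9 genes past the position test ran from 0.62 for Gnai2 to 0.84 for Pde1a. Zones did not overlap for 14 of the 51 genes and 14.5% of all features.

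Partner genes of the pathway were read from 6 lists. None of 5 receptors coupled to G proteins and none of 3 receptor kinases and arrestins passed limma's position test, with 0 and 0 of them at an unadjusted p under 0.05. Of 9 inhibitors and substrates of protein kinase A, 4 passed: Ppp1r1b, Arpp19, Arpp21 and Ppp1r1a. Ppp1r1b, the dopamine-regulated phosphatase inhibitor DARPP-32, had its highest mean at D9 (2.59 ± 0.73) and its lowest at B5 (-2.59 ± 0.16 over 2 datasets), with an adjusted limma p of 7e-19. It was higher in the C-E block than in rows F-G by 2.69 ± 0.60. That block was chosen with the map of Ppp1r1b known, so this difference is a size and no test. Arpp19 likewise peaked at D9 (0.71 ± 0.16), with its minimum at B5 (-1.10 ± 0.14), and its map was among those nearest to Pde2a. Arpp21 was lowest at B5 as well, at -1.36 ± 0.86, with an adjusted limma p of 1.57e-10. Ppp1r1a, another phosphatase inhibitor, had its highest mean at A10 (1.05 ± 0.17 over 2 datasets) and its lowest at G8 (-0.90 ± 1.11), with an adjusted limma p of 0.00642.

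Of 10 other regulators of G proteins 2 passed, Gprin1 and Rasd2. Rasd2, a small GTPase of the striatum, was higher in the C-E block than in rows F-G by 1.41 ± 0.43. Its map was highest at D9 like that of Ppp1r1b, which was known when the block was chosen. The difference of Rasd2 is thus also a size and no test. Between the same zones Gprin1 had a difference of -0.74 ± 0.08, with an adjusted limma p of 0.0343. Of 5 effectors of cyclic AMP outside protein kinase A, Rap1a and Rap1b passed the position test, with adjusted limma p of 0.0213 and 0.00249. Datasets differed widely at the highest position of Rap1a (D5, 1.35 ± 1.73) and the lowest of Rap1b (A8, -2.37 ± 2.86 over 2 datasets). Of 3 cyclic GMP genes Gucy1a1, a subunit of soluble guanylyl cyclase, passed with an adjusted limma p of 0.00339. Gucy1a1 was highest at D9 (0.86 ± 0.23) and lowest at C6 (-0.93 ± 0.37). Ppp1r1b, Rasd2 and Arpp21 also stand in the striatum list used above.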

How the data were processed

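Brain voxels were hybridised against whole-brain RNA on 2-colour arrays. Per the labels, Trizol was used to extract total RNA, and cDNA was coupled to the dyes. How arrays were scanned, background-corrected and normalized is not given in the sources. The authors deposited 1 table of log2 ratios, 20847 rows by 1 column an array, in which 99.9% of rows had a median within 0.001 of 0. Its lowest value, -6.64, occurred 19322 times (0.483% of values) and was treated as not measured; 1.93% were missing. Genes were named through the platform annotation: 13162 rows had 1 symbol, 317 several and 7319 none.

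Arrays were centred on the median of the rows with no gaps, moving them by up to 0.353. A row needed values on 80% of each dataset's arrays, and rows of 1 symbol were averaged. Of the values of the 51 genes, 1.21% were not used. No read depth exists for arrays, so their number limits the precision. Positions were compared with limma 3.58.1 (R 4.3.3), a moderated F test with dataset as a block, and zones with limma on 1 difference per dataset, both two-sided or omnibus with Benjamini-Hochberg adjustment over all features at 0.05. The zone tests' p-values rest on the spread between the 3 harvests; in the position test the spread of arrays around position and dataset effects carries the error. Of 15610 features, 15501 had an F; in the others not all positions could be estimated.

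The dataset numbers name independent harvests and so pair the arrays. Deviations from position means correlated at a median of 0.237 within datasets and -0.12 between them, over 7556 features. Deviations at a position cancel over its datasets, so the value between datasets is pushed to the negative side by construction. Named are all genes past the position test, the 2 of largest F in each role, and per zone comparison those that passed or else the 3 of smallest p in each direction. Pde8b, Gnao1, Gna14, Rgs2 and Rgs3 in the position test and Akap9 in the block comparison fall outside this rule or were singled out after their values were seen. The genes, lists and rules were chosen with earlier results of these data known. Alternatives were other normalization, filters, floors, blocks, weights, arrays and datasets.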

Additional observations from a re-analysis of the deposited data

How the results depend on the processing

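Array number and shared dataset effects limit these results, and of the 9 genes only Pde1a passed the position test under every alternative that tested it (it has a gap and so was not among the rows measured on every array). The position test's 9 genes became 30 with array weights (6178 of all features, the weights' estimation having stopped before convergence), 15 with quantile normalization (1161), 6 with no replicate block (365; the block pairs arrays of one harvest) and 1 to 5 without each replicate in turn (206 to 543, against 765). The contrast of position means in the fit of all arrays with the replicate block called 13 genes for rows A-B against F-G (0 in the main analysis), 11 for columns 5-7 against the outer columns (0), 13 for the C-E block against rows F-G (4) and 3 for the block against columns 5-7 (0), and 1966, 1257, 1140 and 174 features in all. With rows measured on every array only, 22 of the 51 genes and 7050 features were left; 7 genes (624 features) were called in the position test, 3 (154) for rows A-B against F-G, 1 (201) for columns 5-7 and 3 (292) for the block against rows F-G. Columns 5-7 also gave 1 gene, Pde2a, with quantile normalization (60 of 15610 features) and without the 6 row D arrays of dataset 2 (46, against 0). For the block against rows F-G, keeping floor values gave 0 genes and 0 features, and leaving out each replicate 0 to 4 genes. None of the zone differences of the genes named by the rule reversed under the alternatives run; other genes were not followed. Leaving out the 3 arrays with over 15% of values not measured, chosen after seeing the data, gave 11 genes in the position test (793 of 15493 features) and 5 for the block (119 of 15610). The causes of these changes were not tested.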
